A study of Mus musculus with 384 samples.

Results

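Basal cells of the mouse mammary gland, sorted after ablation of the luminal layer, were divided by their reads of Fmod, which encodes fibromodulin. A kept cell was called Fmod-positive at 50 CPM or more, where CPM is the count scaled to a fixed total of reads in genes, and Fmod-negative under 10 CPM. The division gave 29 Fmod-positive and 36 Fmod-negative cells among 71 kept ablated basal cells, and 6 cells lay between the limits. The 65 classified cells are part of 319 kept single cells on 1 plate of 384 wells. Because Fmod itself chose the classes, its own values are given as a description, and each class counts as 1 sample with no test.

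All mice, those labelled wild type (WT) included, carried K8rtta, TetO-DTA, K5CreER and Rosa-Tomato on a mixed background. The K8 promoter drives rtTA in luminal cells, rtTA with doxycycline turns on diphtheria toxin A, and K5CreER with Rosa-Tomato marks cells of basal origin. As labelled, WT cells thus carried the same transgenes as the others and differed by treatment. Whether the mixed background differed between these mice is not given. Ablated glands had received 0.2 mg doxycycline by intraductal injection 1 week before the sort, and the labels give no treatment for WT glands. The labels do not say whether or when the Cre was activated with tamoxifen. Single Tomato-positive cells negative for CD45, CD31 and CD140a were sorted with antibodies to CD24, CD29 and EpCAM into basal, hybrid and luminal gates (ablated) or basal and luminal gates (WT). Full-length Smart-seq2 libraries were made from them. How the hybrid gate was drawn, which animal each cell came from and how far the luminal layer had been removed are not given in the sources used here.

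Fibromodulin belongs to the small leucine-rich proteoglycans, secreted core proteins that bind collagen fibrils, set fibril diameter and can hold TGF-beta in the matrix. Decorin (Dcn), lumican (Lum), biglycan (Bgn) and PRELP are relatives. In connective tissue these proteins come mainly from fibroblasts and tendon cells. Basal (myoepithelial) cells of the mammary gland form the contractile outer layer of the duct, express keratins 5 and 14, p63 and smooth-muscle actin, and rest on a basement membrane that they help to build.

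Fmod was found in a subset of the basal and hybrid gates of ablated glands. Per cell, Fmod had a lowest value of 55.6, a median of 721.7 and a highest value of 2871 CPM in Fmod-positive cells, against 0, 0.271 and 6.09 CPM in Fmod-negative cells, of which 18 of 36 had no Fmod read. Over all reads of a class, Fmod (ENSMUSG00000041559.7, chromosome 1:134037254-134048277 on GRCm38) stood at 938 and 1.49 CPM. The cells just inside the upper limit had 55.6 and 84.4 CPM, the 2 nearest below it had 24.5 and 23.4 CPM, and the 2 just under the lower limit had 6.09 and 5.91 CPM. Between the highest Fmod-negative and the lowest Fmod-positive cell lay 6 cells, all from 12.1 to 24.5 CPM.

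The same limits found 22 Fmod-positive, 8 intermediate and 55 Fmod-negative cells among 85 kept hybrid cells. Fmod-positive hybrid cells had a median of 238.7 CPM of Fmod, with a range of 51.6 to 1125 CPM. No cell of the ablated luminal gate (0 of 76, which allows a share of up to 3.95%), the WT basal gate (0 of 44, up to 6.82%) or the WT luminal gate (0 of 43, up to 6.98%) reached 50 CPM, and the highest values there were 4.09, 10.6 and 6.72 CPM. Libraries made from many sorted cells gave the same order, with 251.1 CPM of Fmod for ablated basal cells, 168.5 CPM for ablated hybrid cells, none for ablated luminal cells (0 reads), 12.04 CPM for WT basal cells and 0.995 CPM for WT luminal cells. In such libraries, and in the summed levels of a class, fewer cells with the transcript and less of it per cell cannot be told apart. The 5 negative control wells held 1, 2, 0, 0 and 0 Fmod reads.

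**Figure D1:**
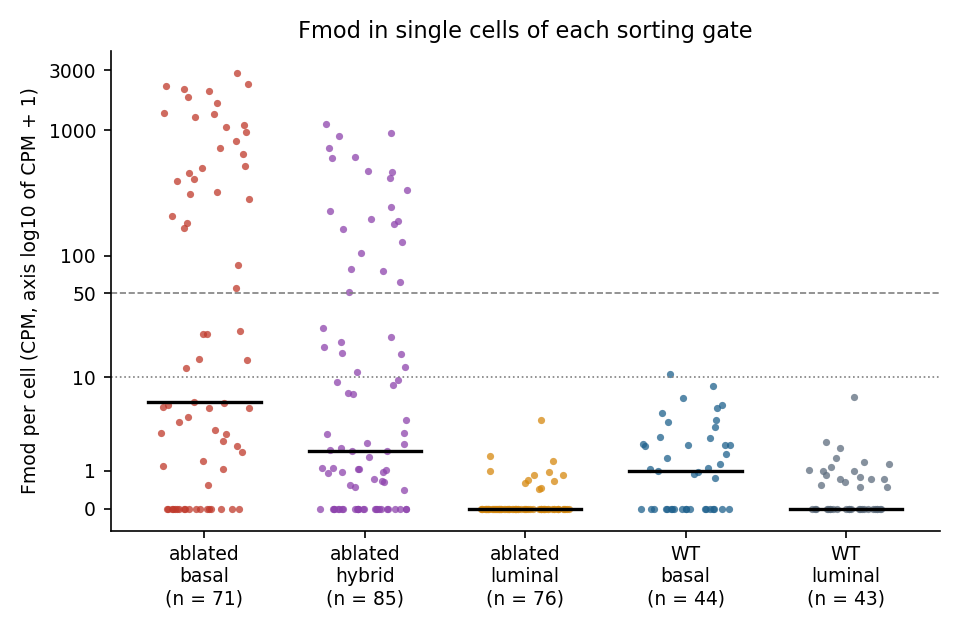
Fmod in each kept cell, as CPM on a log axis after adding 1 CPM, by condition and gate, with ablated gates left of WT gates; points are cells, bars are medians, and the dashed and dotted lines mark 50 and 10 CPM. The ablated basal gate splits into 29 cells at or above 50 CPM, 6 between and 36 below 10 CPM, and no cell of the ablated luminal or either WT gate reached 50 CPM.

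The classes also fell into different parts of the plate. In the order of the wells, the first stretch of ablated basal cells (wells E15 to G05, 37 kept cells) held 25 Fmod-positive, 4 intermediate and 8 Fmod-negative cells, so that 67.6% were Fmod-positive (exact Clopper-Pearson 95% interval 50.2 to 81.99%). The second stretch (G06 to I09, 34 kept cells) held 4 Fmod-positive, 2 intermediate and 28 Fmod-negative cells, or 11.8% positive (3.30 to 27.5%). The boundary was set after the values were seen.

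Counts of processed pseudogenes of ribosomal proteins changed at the same well. Rps2-ps13 (chromosome X:52898588-52899469) is an intronless copy of the gene for ribosomal protein S2, and Rps24-ps3 (X:79195047-79195448) is a copy of the gene for S24. Each is almost identical to its parent, Rps2 (17:24718116-24721929) or Rps24 (14:24487125-24496959): over the aligned coding stretch Rps2-ps13 differs from Rps2 at 7 of 879 bases, and Rps24-ps3 differs from Rps24 at 4 of 399 bases. Counts of such copies are uncertain, since an aligner can split reads between copy and parent. The stretches below, from GENCODE M21 transcripts on GRCm38 (plus strand, X:52898612-52898671 and X:79195367-79195426 for the copies), show how little separates copy from parent, with capitals for the bases that differ.
Rps2-ps13: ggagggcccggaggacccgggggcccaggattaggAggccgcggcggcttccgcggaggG
Rps2: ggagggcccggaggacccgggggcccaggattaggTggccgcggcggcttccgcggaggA
Rps24-ps3: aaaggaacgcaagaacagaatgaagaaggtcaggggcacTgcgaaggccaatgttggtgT
Rps24: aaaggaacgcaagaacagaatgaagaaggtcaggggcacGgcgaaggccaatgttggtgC

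Rps2-ps13 reached 10 CPM in 0 of 37 cells of the first stretch (highest 5.62 CPM), against 29 of 34 cells of the second stretch. Rps24-ps3 ran the other way, with 10 CPM or more in 35 of 37 cells of the first stretch and 5 of 34 of the second. Summed over the first and second stretch, Rps2-ps13 stood at 0.266 and 126.4 CPM and its parent Rps2 at 297.3 and 134.1 CPM. Rps24-ps3 stood at 48.75 and 5.88 CPM and Rps24 at 171.8 and 201.7 CPM. Whether reads moved between copy and parent was not tested. Sorted by which copy had more reads, 41 ablated basal cells had more Rps24-ps3 and 30 had more Rps2-ps13. Of the 41, 27 were Fmod-positive (65.9%, interval 49.4 to 79.9%), 4 intermediate and 10 Fmod-negative, and of the 30, 2 were Fmod-positive (6.67%, 0.818 to 22.1%), 2 intermediate and 26 Fmod-negative. Fmod class, plate stretch and pseudogene pattern therefore moved together, and the 3 cannot be told apart in these cells. The labels name no animal for any well, and whether the stretches came from different animals was not tested. Values over all cells come first, and those of the leading genes and of several lists within the stretches and patterns come after them.

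**Figure D2:**
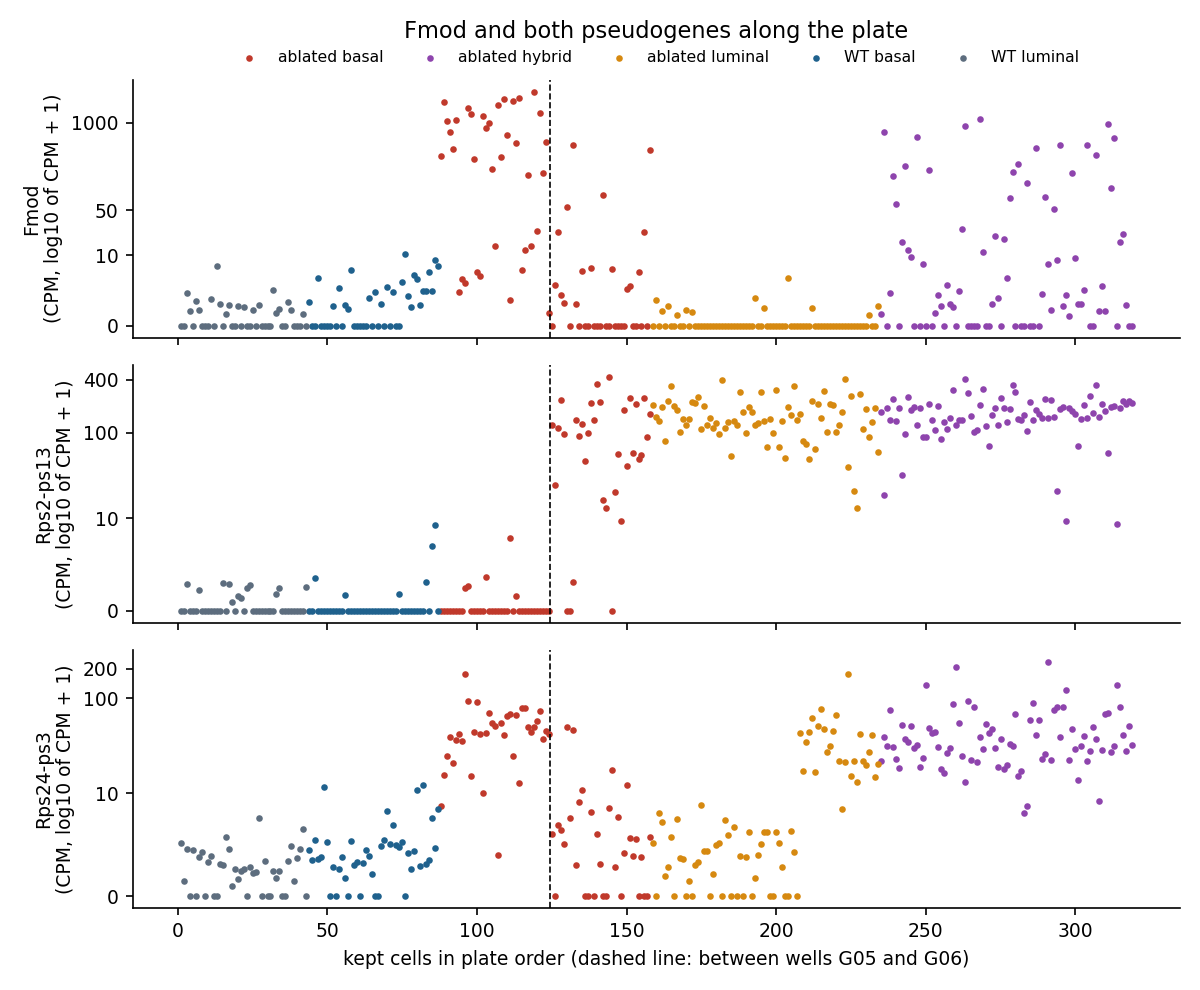
Fmod, Rps2-ps13 and Rps24-ps3 in each of 319 kept cells in the order of the wells, as CPM on log axes after adding 1 CPM; colours give condition and gate, and the dashed line marks the step between wells G05 and G06. Among ablated basal cells (red), 25 of 37 left of the line and 4 of 34 right of it have 50 CPM or more of Fmod, and Rps2-ps13 and Rps24-ps3 exchange places at the line.

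Sequencing depth differed less. Fmod-positive cells had a median of 903170 gene reads (153340 to 2143906) and 4745 genes, against 694530 reads (169126 to 1847753) and 4098.5 genes in Fmod-negative cells, and the median mitochondrial share was 3.64% and 3.56%. Both classes expressed the basal markers. Krt14 was detected in 29 of 29 Fmod-positive and 35 of 36 Fmod-negative cells, where detection means 5 or more reads after every cell was thinned to 100000 reads. Its summed level was 6240 and 8416 CPM.

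Between the classes, the matrix genes Dcn, Htra1 and Vcan were higher in Fmod-positive cells, while Slpi, Lgr5, Tspan8 and Celsr2 were lower. A gene was measured if detected in at least 20% of the cells of either class, and called if its summed level differed at least 2-fold after 10 CPM were added to both and its detecting share differed by at least 20 points the same way. Of 3231 measured genes other than Fmod, 213 (6.59%) were called higher and 54 (1.67%) were called lower in Fmod-positive cells, around a median log2 ratio of 0.03. The calls describe these cells and carry no p-value. Genes called higher were detected in a median of 11 of 29 Fmod-positive and 4 of 36 Fmod-negative cells, and 15 of the 213 were detected in no Fmod-negative cell. Genes called lower were detected in a median of 4.5 of 29 Fmod-positive and 14.5 of 36 Fmod-negative cells.

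Decorin, a collagen-binding relative of fibromodulin, was detected in nearly every Fmod-positive cell. Dcn (10:97479609-97518143) had 0, 2785 and 13340 CPM (lowest, median, highest) in Fmod-positive cells, against 0, 5.35 and 5022 CPM in Fmod-negative cells. Dcn was detected in 27 of 29 Fmod-positive and 7 of 36 Fmod-negative cells, and its summed levels of 3345 and 352 CPM gave a log2 ratio of 3.21. The ranges overlap, and Fmod-negative cells reached as high as 5022 CPM. Of the 14 listed small leucine-rich proteoglycans, 3 were measured and Dcn alone was called. Bgn stood at 733 and 678 CPM and Prelp at 381 and 626 CPM in Fmod-positive and Fmod-negative cells, and Lum, Kera, Epyc, Aspn and Podn had no read in either class.

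Htra1, a secreted serine protease that cleaves matrix proteins, decorin among its substrates, was among the 3 largest higher calls. Htra1 (7:130936111-130985660) had 0, 400.7 and 2324 CPM in Fmod-positive cells, against 0, 0 and 635.6 CPM in Fmod-negative cells. It was detected in 22 of 29 and 3 of 36 cells, with a log2 ratio of 4.29, and it was the 1 gene called among 8 measured proteases and inhibitors. Versican (Vcan, 13:89655312-89742509), a large hyaluronan-binding proteoglycan of provisional matrix, had 0, 124.7 and 1509 CPM against 0, 0 and 585.6 CPM, was detected in 17 of 29 and 3 of 36 cells, and had a log2 ratio of 3.09. Reelin (Reln), a secreted matrix glycoprotein best known from neurons, was detected in 20 of 29 Fmod-positive and 8 of 36 Fmod-negative cells (log2 ratio 2.17). In all of these the ranges of the classes overlap at the low end, because some Fmod-positive cells had no read.

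Matrix lists moved in part. Of 17 measured genes of the list of other matrix and matricellular genes, 4 were called higher and none lower, with a list median of 0.52 beside 0.03 for all measured genes. These were Vcan, Mgp (matrix Gla protein, an inhibitor of calcification, detected in 26 of 29 and 14 of 36 cells), Eln (elastin, 22 and 12 cells) and Fbln2 (fibulin-2, 25 and 15 cells), with log2 ratios of 3.09, 1.71, 1.59 and 1.39. Of 20 measured basement membrane, laminin and hemidesmosome genes, 5 were called higher (Lamc1, Col4a1, Col4a2, Col7a1 and Nid1) and 1 lower (Dst, dystonin, which links keratin to hemidesmosomes), with a list median of -0.11. The type IV collagen genes Col4a1 and Col4a2 stood at 830.5 and 900.1 CPM in Fmod-positive cells, against 308 and 246 CPM in Fmod-negative cells. Of 5 measured fibrillar collagens and modifiers, none was called and the median was -0.74. Col9a1, a collagen of fibril surfaces in cartilage, was called with 256.8 and 23.4 CPM and detection in 13 and 2 cells.

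Signalling genes were called in both directions. Of 15 measured TGF-beta family genes, Smad3 (a receptor-activated transcription factor), Id2 (an inhibitor of bHLH factors and a BMP target) and Fst (follistatin, which binds activins) were called higher, none was called lower, and the list median was -0.07. None of the 18 TGF-beta family genes measured within wells E15 to G05 was called. Within wells G06 to I09, 5 of 15 measured were called higher (Smad3, Fst, Tgfb2, Bambi and Sostdc1) and 3 lower (Tgfbr1, Ltbp4 and Id3). Of all genes measured in those wells, 25.9% were called higher and 11.4% lower. Fst stood at 1395 and 528 CPM and was detected in 25 of 29 and 20 of 36 cells. Smad3 was detected in 7 and 1 cells. The log2 ratios in the first and second stretch were 0.88 and 1.49 for Fst, 1.10 and 1.11 for Id2, and 2.33 and 3.46 for Smad3. Of 14 measured Wnt pathway genes, Wnt6 (a ligand, detected in 6 of 29 Fmod-positive and 0 of 36 Fmod-negative cells, the zero allowing a share of up to 8.33%) and Wif1 (a secreted Wnt inhibitor, 1290 and 453.9 CPM) were called higher, and Lgr5 and Sfrp1 lower. No Notch gene of 6 measured and no EGFR or IGF gene of 6 measured was called.

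Most other leading higher calls were detected in a minority of Fmod-positive cells. Psat1, an enzyme of serine synthesis, led with a log2 ratio of 4.80 (282.4 and 0.496 CPM), yet was detected in 7 of 29 Fmod-positive cells and in 0 of 36 Fmod-negative cells. Ntrk3, the neurotrophin-3 receptor, was detected in 12 and 2 cells (4.36), and Kdm3a, a histone H3 lysine demethylase, in 11 and 1 cells (3.90). Cdkn1c, which encodes the cyclin-dependent kinase inhibitor p57, was detected in 11 of 29 and 0 of 36 cells (84.6 and 0.638 CPM, log2 ratio 3.15). Epha4, an ephrin receptor, was detected in 7 and 1 cells (3.65). Ckb, the brain-type creatine kinase, was detected in 13 and 3 cells (3.51). Pfkp, a phosphofructokinase of glycolysis, stood at 237 and 41.5 CPM, and it and Pfkl were called higher and Tpi1 lower among 12 measured glycolysis genes.

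The largest lower call was Slpi, a secreted inhibitor of neutrophil elastase made by many epithelia. Slpi (2:164354070-164389095) had 1.61, 10.3 and 295.6 CPM in Fmod-positive cells, against 7.85, 701.9 and 11570 CPM in Fmod-negative cells. It was detected in 7 of 29 and 27 of 36 cells, with summed levels of 43.4 and 2413 CPM and a log2 ratio of -5.50. The highest Fmod-positive cell thus lay below the median of the Fmod-negative cells, and the ranges overlap below that. WT basal cells held 3924 CPM of Slpi.

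The other leading lower calls included receptors and an adhesion gene. Lgr5 (10:115450311-115587780), the R-spondin receptor that marks stem cells in several epithelia, had 0, 1.64 and 1261 CPM in Fmod-positive cells, against 0, 21.2 and 4951 CPM in Fmod-negative cells, was detected in 5 of 29 and 17 of 36 cells, and had a log2 ratio of -2.87. Tspan8, a tetraspanin used elsewhere to divide mammary basal cells, was detected in 1 of 29 and 9 of 36 cells (log2 ratio -4.26). Celsr2, an atypical cadherin of planar polarity, was detected in 2 and 15 cells (-3.88), and Gfra2, the neurturin receptor, in 1 and 13 cells (-3.62). Sfrp1, a secreted Wnt antagonist, was detected in 0 of 29 cells (a zero that allows up to 10.3%) and 8 of 36 cells (1.53 and 174.9 CPM). Fgfr3, a fibroblast growth factor receptor, was likewise detected in 0 of 29 and 10 of 36 cells (-3.68). Oxtr, the oxytocin receptor of myoepithelial cells, was detected in 10 and 20 cells (-1.23).

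Most basal genes were not called. Of 20 measured basal myoepithelial genes, Myh11 (smooth-muscle myosin heavy chain, 975 and 466 CPM, log2 ratio 1.05) was called higher, Oxtr and Sfrp1 lower, and the list median was 0.09. Acta2 stood at 19250 and 13570 CPM, Krt5 at 832 and 897 CPM and Trp63 at 264 and 420.5 CPM in Fmod-positive and Fmod-negative cells, and none was called. Of 5 measured luminal keratin and junction genes, Cd24a (a sorting antigen, detected in 24 of 29 and 9 of 36 cells, log2 ratio 1.99) and Cdh1 (E-cadherin) were called higher, with a list median of 1.26. Its product CD24 was stained in the sort, and the part of the gate in this value was not tested.

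Markers of other cell types were mostly not measured in either class, and their part in the results was not tested. The summed level of the 15 fibroblast markers was 71.7, 5236 and 13370 CPM (lowest, median, highest) in Fmod-positive cells, against 9.31, 1449 and 7806 CPM in Fmod-negative cells. Without Dcn it was 30.3, 991 and 5328 CPM, against 9.31, 1268 and 6445 CPM. Within wells E15 to G05 the median of all 15 was 5306 CPM in Fmod-positive and 2093 CPM in Fmod-negative cells, and without Dcn 1083 and 2032 CPM. Reads were present for 10 of the 15 markers in each class. Lum, Dpt, Mfap5 and Loxl1 had no read in either class, Pi16 had none in Fmod-positive cells and Pdgfrb none in Fmod-negative cells. Postn, a matricellular protein, stood at 1182 and 1453 CPM and Fbn1, which encodes fibrillin-1, at 180.0 and 126.3 CPM in Fmod-positive and Fmod-negative cells. The collagen genes Col1a1, Col1a2 and Col3a1 had 11.5, 60.6 and 0.145 CPM in Fmod-positive cells, against 0.0709, 45.99 and 12.3 CPM in Fmod-negative cells. Pdgfra, whose product CD140a was gated out, stood at 66.4 and 92.2 CPM. Of the pericyte, endothelial, immune and adipocyte lists no member was measured in either class. Ptprc had no read, and Pecam1 had 10.2 CPM in Fmod-positive cells and 0 in Fmod-negative cells. Of 14 tendon and cartilage genes, 10 skin keratinocyte genes and 8 Schwann and nerve genes, 2, 1 and 1 were measured and none was called.

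Stress and growth lists gave few calls. Of 18 measured dissociation and immediate early genes none was called, although 17 lay below a ratio of 1 and the median log2 ratio was -0.59. Within wells E15 to G05, 9 of 19 measured lay above a ratio of 1, the median was -0.07 and Cebpb was called higher. Within wells G06 to I09, 8 of 19 lay above it, with a median of -0.47 beside 0.39 for all measured genes. Fmod-negative cells of the first stretch over the second had a median of -0.52 for this list. Icam1 and Ccl2 were called higher among 6 measured TNF and NF-kB genes, F3 among 10 YAP and TAZ targets and Pdia4 among 14 genes of the unfolded protein response. None was called among 2 interferon, 4 p53, 10 glutathione, 1 cell cycle, 5 alveolar luminal and 1 hormone-responsive luminal genes measured. Of 8 measured progenitor-associated genes, Lgr5 and Tspan8 were called lower.

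Some of the called genes were called within a single stretch of wells too. In the first stretch, 25 Fmod-positive cells were set beside 8 Fmod-negative cells, and 486 of 4321 measured genes (11.2%) were called higher and 495 (11.5%) lower. Of the 213 genes called higher over all cells, 97 were among those 486, and of the 54 called lower, 27 were among those 495. In the second stretch, with 4 Fmod-positive and 28 Fmod-negative cells, 1163 of 4493 measured genes (25.9%) were called higher and 511 (11.4%) lower around a median log2 ratio of 0.39, and 104 of the 213 and 34 of the 54 were among them. Called in all 3 settings were 47 higher genes, Dcn, Htra1, Vcan, Psat1, Kdm3a, Cdkn1c, Epha4 and Wnt6 among them, and 17 lower genes, including Slpi, Tspan8 and Dst. In the second stretch, 1 detecting cell among the 4 Fmod-positive cells can meet both detection limits. The calls of Psat1 (523.7 CPM) and Cdkn1c (194.9 CPM) there rest on the cell in well G16. Those of Dcn, Htra1 and Vcan rest on the cells in wells G14 and G16. By fold alone, 83 of the 213 and 26 of the 54 differed at least 2-fold in their direction within both stretches. Of all genes measured over all cells, 6.93% were 2-fold higher and 5.66% were 2-fold lower in both. The stretches share their cells with the comparison over all cells, so these counts repeat its data in part.

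The stretches divided the named genes. Dcn was detected in 25 of 25 Fmod-positive and 6 of 8 Fmod-negative cells of the first stretch, and in 2 of 4 and 1 of 28 cells of the second, with log2 ratios of 1.41 and 6.88. Htra1 (3.60 and 3.29) and Slpi (-3.16 and -4.79) were called in both. Celsr2 (-4.50 and -2.40) was called in the first stretch but not in the second, where 1 of 4 Fmod-positive and 10 of 28 Fmod-negative cells detected it. Lgr5 (-3.08 and -2.66) was called in the second stretch but not in the first, where 4 of 25 Fmod-positive and 2 of 8 Fmod-negative cells detected it. Ntrk3 (2.70) and Fxyd6 (-2.34) were not called in the first stretch either, and Ckb stood at 2.95 there and 0.64 in the second. Reln (0.41 and 5.05), Wif1 (0.16 and 3.32), Eln (0.46 and 2.77) and Cd24a (0.73 and 2.27) were not past 2-fold in the first stretch. Sfrp1 and Fgfr3 had ratios of -0.00 and -0.01 in the first stretch and -4.46 and -2.78 in the second. Sfrp1 was detected in no classified cell of the first stretch, so with 10 CPM added its ratio there could only lie near 0. In the first stretch no basement membrane gene was called higher, and Col17a1 and Dst were called lower. Vcan was the 1 gene called of the list of other matrix and matricellular genes. Of 9 fibrillar collagens and modifiers measured in the first stretch, Col12a1 was called higher and Col14a1 and Loxl3 lower. Of 8 proteases and inhibitors measured there, Htra1 was called higher and Plat lower. Of the basal myoepithelial list, Oxtr (-1.39) was called lower there and none higher, with Myh11 at 0.24, and Cdh1 stood at 0.11.

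The stretches differed even without Fmod-positive cells. Among Fmod-negative cells, 698 of 3773 measured genes (18.5%) were higher and 187 (4.96%) lower in the 8 cells of the first stretch over the 28 of the second. Of the 213 genes called higher in Fmod-positive cells, 38 (17.8%) were among those 698, and of the 54 called lower, 8 (14.8%) were among those 187. Dcn had a log2 ratio of 5.85 in Fmod-negative cells of the first stretch over the second, beside 3.21 between the classes over all cells. Htra1, Mgp, Fbln2, Lamc1, Col4a1, Col4a2 and Col7a1 were called higher in the same comparison of stretches. Reln (4.08), Vcan (3.54), Cd24a (2.56) and Wif1 (1.93) were also higher in the first stretch on the log2 scale, and Sfrp1 (-4.42), Fgfr3 (-4.40) and Slpi (-2.96) were lower. Celsr2 (0.44), Gfra2 (0.19) and Lgr5 (0.27) lay nearer to 0. Psat1 (0.03) and Cdkn1c (-0.07) were detected in no Fmod-negative cell. With 10 CPM added, their ratios could only lie near 0, so they do not show whether these genes differ between stretches.

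The cells were also divided by pseudogene in place of well. Among cells with more Rps24-ps3, Dcn was detected in 27 of 27 Fmod-positive and 6 of 10 Fmod-negative cells, Htra1 in 22 and 2, Vcan in 17 and 3, Cdkn1c in 11 and 0, and Psat1 in 7 and 0. Celsr2 was detected in 2 of 27 and 6 of 10 of these cells, Gfra2 in 0 and 4, and Slpi in 5 and 6 (median 9.67 and 41.7 CPM). Reln (20 and 7), Mgp (26 and 8) and Lgr5 (4 and 2) had closer shares. Among cells with more Rps2-ps13, the 26 Fmod-negative cells detected Dcn in 1, Slpi in 21 and Lgr5 in 15, and the 2 Fmod-positive cells detected neither Dcn nor Htra1 and both detected Slpi. The log2 ratio among cells with more Rps2-ps13 was -0.58 for Dcn and -1.47 for Htra1, of the opposite sign to wells G06 to I09. These ratios rest on low levels, 4.82 and 12.2 CPM of Dcn and 0 and 17.6 CPM of Htra1 in Fmod-positive and Fmod-negative cells. Of the 26 Fmod-negative cells, 1 detected Htra1.

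The 4 Fmod-positive cells of the second stretch, in wells G14, G16, H04 and I04, split by the pseudogenes. Fmod stood at 55.6, 461.7, 84.4 and 396.3 CPM in them, and Rps24-ps3 at 50.5, 47.6, 0 and 2.98 CPM. Dcn was 6219 and 2366 CPM in the first pair and 25.3 and 0 CPM in the second, and Htra1 506.7 and 344.3 CPM against 0 and 0. Slpi was 10.3 and 7.75 CPM in the first pair and 253.1 and 245.3 CPM in the second. Cells G14 and G16 thus had more Rps24-ps3 than Rps2-ps13 together with high Dcn, while H04 and I04 had Fmod with little or no Dcn, no Htra1 and 0 and 0.993 CPM of Vcan.

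Hybrid cells gave a comparison that the division of basal cells had not used, and few of the basal calls recurred there. Between 22 Fmod-positive and 55 Fmod-negative hybrid cells, 150 of 6122 measured genes (2.45%) were called higher and 41 (0.67%) lower. Of the 213 basal genes called higher, 4 (1.88%) were called higher in hybrid cells, 5 (2.35%) differed 2-fold there beside 1.73% of all genes measured in basal cells, and 107 (50.2%) had a ratio above 1 beside 49.2% of all. Of the 54 called lower, 1 (1.85%) was called lower in hybrid cells. Dcn stood at 484 CPM in Fmod-positive and 487 CPM in Fmod-negative hybrid cells, a log2 ratio of -0.01. Htra1 (0.57), Vcan (0.16), Slpi (-0.30), Lgr5 (-0.77), Celsr2 (0.02) and Cdkn1c (0.08) were likewise within 2-fold. Of the hybrid cells, 82 of 85 had 10 CPM or more of Rps24-ps3 and 83 of 85 had 10 CPM or more of Rps2-ps13, so nearly all held reads of both copies, unlike the basal cells.

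**Figure D3:**
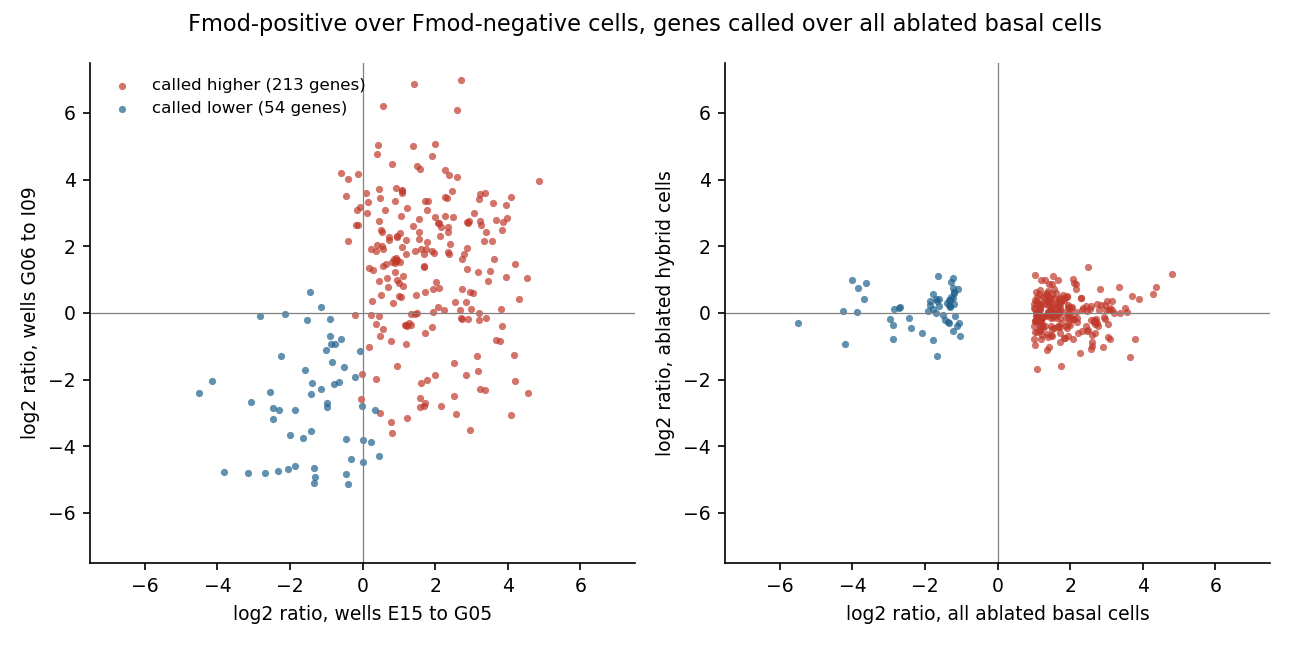
Log2 ratios (Fmod-positive over Fmod-negative cells) of the genes called over all ablated basal cells; the left panel sets wells G06 to I09 against wells E15 to G05, the right panel sets hybrid cells against all basal cells, and points are genes coloured by direction called. Of the 213 higher genes, 201 lie above 0 in wells E15 to G05, 157 in wells G06 to I09 and 107 in hybrid cells.

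Both classes were also set beside WT basal cells. Fmod-positive ablated cells over 44 WT basal cells gave 329 of 3181 measured genes higher (10.3%) and 33 lower (1.04%). Fmod-negative ablated cells over the same WT cells gave 125 of 2489 higher (5.02%) and 37 lower (1.49%). Because both use the same WT cells, the values are given side by side. Sostdc1, a secreted BMP and Wnt antagonist, and Emid1, an EMI-domain matrix protein, were higher in both classes, with log2 ratios of 5.08 and 4.55 in Fmod-positive and 4.13 and 4.21 in Fmod-negative cells. Mgp had log2 ratios of 4.41 and 2.70, and Vcan 4.25 and 1.16. Dcn had a log2 ratio of 2.03 in Fmod-positive and -1.18 in Fmod-negative cells, Htra1 2.92 and -1.38, and Psat1 3.53 and -1.27. Slpi had -6.20 and -0.70, Tspan8 -5.68 and -1.41, and Lgr5 -1.53 and 1.35. Of the genes that stood highest in ablated over WT basal cells in earlier results of these data, 15 of 17 were measured and 5 were called higher in Fmod-positive over Fmod-negative cells (Mgp, Vcan, Col4a1, Col4a2 and Dcn), and 12 of the 17 were called higher in Fmod-negative cells of the first stretch over the second. Of the 14 that stood lowest, 12 were measured and Sncg and Slpi were called lower in Fmod-positive cells. Of the 12, 7 had positive log2 ratios, and the list median was 0.34 beside 0.03 for all measured genes. Both lists were chosen on these cells and are not independent evidence.

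The genes whose levels followed Fmod most closely over the 71 ablated basal cells, among 1865 genes detected in at least 25% of them, were Dcn (Spearman correlation 0.75), Htra1 (0.68), Vcan (0.65), Col4a2 and Reln (0.57 each), Cd24a, Vamp3 and Rps24-ps3 (0.54 each), and Mgp and Rpl35a (0.53 each). Rps2-ps13 (-0.64), Slpi (-0.63), Fxyd6 and C4b (-0.50 each) and Igfbp7 (-0.46) ran most against it. The ranking uses the Fmod values that cut the classes, in the same cells, so it repeats the class comparison in part. These cells share 1 plate, and the correlation of Fmod with read depth was 0.06. Within the first stretch Dcn kept 0.43 and Htra1 0.36, while Vcan had 0.11, Reln 0.05, Slpi -0.41 and Rps24-ps3 -0.39. Within the second stretch Cd24a had 0.36, Col4a2 0.24, Mgp -0.04, Rps2-ps13 -0.10 and Slpi -0.28. Dcn and Htra1 were detected in too few cells of that stretch to be compared. In hybrid cells Dcn and Htra1 had 0.01 each and Slpi 0.01.

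The libraries of many cells were read for the same genes. Ablated basal cells sorted together had 61.6 CPM of Rps24-ps3 and none of Rps2-ps13 (0 reads), beside 2326 CPM of Dcn and 221.2 CPM of Slpi. The ablated hybrid library had 37.6 CPM of Rps24-ps3 and 0.808 CPM of Rps2-ps13, with 1475 CPM of Dcn and 19.8 CPM of Slpi. The ablated luminal library had 36.5 CPM of Rps24-ps3 and 0.285 CPM of Rps2-ps13, with 15.7 CPM of Dcn and 5420 CPM of Slpi. The WT basal library had 2.83 CPM of Rps24-ps3, 278 CPM of Dcn and 7155 CPM of Slpi. Each group has 1 such library, so these values have no spread.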

How the data were processed

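Per the labels' protocols, cells were sorted into lysis buffer and amplified by Smart-seq2 with 23 cycles and no molecular identifiers. Tools listed in the submitters' processing notes are Seurat, HTSeq 0.6.0, STAR 2.5.2b and cutadapt 1.13, with build GRCm38. The annotation version and strand setting are not given in the sources used here, so antisense overlaps cannot be told apart. The authors deposited raw read counts per gene and well with no normalization. Symbols come from GENCODE M21 (49326 of 49585 identifiers), and 92 spike-ins, with 11 reads in all, were left out.

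Wells with at least 100000 gene reads, 1000 genes and at most 20% mitochondrial reads were kept. No doublet caller was run, since each well is 1 sorted cell with its own library. Reads were summed per class (Python 3.11.15, numpy 2.4.6, pandas 2.3.3), scaled to CPM, and compared as log2 ratios after adding 10 CPM. Shares carry exact binomial 95% intervals (scipy 1.17.1), where a zero allows 3 cells. Summed levels of 50 CPM or more have Poisson intervals no wider than 5.42%. Intervals cover counting error only.

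No test was made, because the labels name no animals and cells are not replicates. The members, call rule and 34 gene lists were chosen with earlier results of these data known. Named genes were the 15 largest called ratios in each direction, up to 4 members of each list, the sorting antigens, the proteoglycans and the 10 genes most like Fmod. Genes without an official name, ribosomal and mitochondrial genes were excepted, and genes called in both stretches, Rps2-ps13 and Rps24-ps3 were added after their values were seen. Alternatives changed limits, weights, scaling (edgeR 4.0.16 TMM, or median of ratios), the added CPM and detection. The steps were tested on simulated data.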

Additional observations from a re-analysis of the deposited data

How the results depend on the processing

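The number of genes called higher (213) or lower (54) in Fmod-positive cells stayed within 1.5 times under the read, mitochondrial, weighting, TMM, median-of-ratios and 1 CPM settings, the 200 CPM limit, detection at 2 reads and removal of the top cell. These gave 207 to 256 higher and 43 to 64 lower genes. Which genes were called was less steady. Detection at 2 reads kept 178 of the 213 higher and 29 of the 54 lower genes, and the 200 CPM limit kept 188 and 41. Fmod-negative cells limited to 0 Fmod reads gave 389 higher and 108 lower genes, and fold alone with no detection filter gave 2125 higher and 2251 lower genes. Detection at 20 reads gave 123 higher and 43 lower genes, with 105 of the 213 and 25 of the 54 among them. Subsets chosen after seeing the data gave 486 and 495 for wells E15 to G05, 1163 and 511 for wells G06 to I09, 357 and 315 for cells with more Rps24-ps3, and 1008 and 822 for cells with more Rps2-ps13. These subsets hold as few as 2 or 4 Fmod-positive cells. Of 30 leading genes, 8 changed sign in cells with more Rps2-ps13, where 2 are Fmod-positive: Ntrk3 (-0.09), Htra1 (-1.47), Kdm3a (-0.18), Ing5 (-0.06), Zdhhc6 (-0.08), Ckb (-0.73), Dcn (-0.58) and Cdkn1c (-0.11). In those Fmod-positive and Fmod-negative cells, Dcn had only 4.82 and 12.2 CPM, Htra1 0 and 17.6 CPM and Cdkn1c 0 and 0.788 CPM. The ratios of Ntrk3, Kdm3a, Ing5, Zdhhc6 and Cdkn1c lay close to 0, so their signs carry little weight. Tmem154 changed sign in wells E15 to G05 (0.01). The causes were not tested.

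No paired analysis was possible because no result comes from a test and the labels name no animals. Depth limits detection: 5 of 100000 reads is 50 CPM, so a gene below that level in a cell mostly went undetected there.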

Other observations

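In hybrid cells, the leading genes called higher in Fmod-positive cells differed from those of basal cells. Mcm3, a subunit of the replicative helicase, had the largest log2 ratio at 2.92. All 7 measured cell cycle genes lay above a ratio of 1, with a median log2 ratio of 1.12, and Mcm3 was the 1 called. Suv39h1, a histone H3 lysine methyltransferase, was the largest lower call at -2.72. Median depth was 1197010 reads in Fmod-positive and 1036941 reads in Fmod-negative hybrid cells.

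The pseudogenes divided the ablated luminal wells too. Rps2-ps13 had a median of 142 CPM in wells I10 to K20 and 132.1 CPM in wells K21 to M04, while Rps24-ps3 reached 10 CPM in 0 of 49 cells of the first of these stretches and in 26 of 27 cells of the second. In WT wells the highest Rps2-ps13 level was 8.33 CPM. No cell of either luminal stretch was Fmod-positive.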
